A study of Drosophila melanogaster with 6 samples.

Results

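The odorant-binding protein (OBP) genes of Drosophila melanogaster were examined in RNA recovered with the RNA-binding protein Zn72D from adult fly heads. They were taken as every gene whose FlyBase symbol begins with Obp and a digit, together with lush, the gene also named Obp76a. That rule found 52 of the 17453 genes listed in the deposited tables, 29 of them on chromosome arm 2R, 12 on 3R, 6 on X, 3 on 3L and 2 on 2L. The libraries were 3 anti-GFP immunoprecipitates (RIP) and 3 inputs, numbered 1 to 3 in each group. All 6 came from heads of adult males and females, pooled, of the genotype y1 w*; P{PTT-GA}Zn72D[CA07703], a protein trap that tags Zn72D with GFP, so the inputs carry the tag too. The input is RNA from a small part of the same kind of lysate. No untagged or mock precipitation was analysed here, so a level in RIP is read against input alone. The labels do not tie the numbers to separate fly collections, and the p-values therefore describe only how far these libraries lie apart, a spread that may be technical.

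OBPs are small secreted proteins whose fold is held together by disulphide bridges between conserved cysteines. Support cells of the sensory hairs release them into the fluid that bathes the receptor neurons, where they bind hydrophobic odorants and pheromones. Some members are made in taste organs, and others are made far from any sense organ, in glia, fat body or the male reproductive tract.

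The RIP libraries held 28070655 to 38182015 expected counts and the input libraries 34401553 to 38331703. Outside rRNA, 25434735 to 36377598 counts were left in RIP and 5864723 to 8182107 in input, so a rare mRNA was read more deeply in RIP. Levels are given as CPM (counts per 1000000 of the TMM-scaled library, where TMM is a scaling that assumes most genes do not differ). Fold changes are therefore relative to the bulk of genes, whose median over the 11670 tested genes was 0.06 on the log2 scale. Levels of different genes are compared as coding TPM, the deposited TPM (transcripts per 1000000) rescaled to that sum over protein-coding genes. As a check of the tissue label, the photoreceptor rhodopsin ninaE had 4131 ± 636 CPM in RIP and 4407 ± 401 in input (SD, n = 3 each). The neuronal gene elav had 492 ± 95.3 CPM in RIP and 146 ± 14.1 in input.

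OBP mRNAs were detected for most of the family, but only a minority were well counted. At least 1 count was listed in at least 1 RIP library for 48 genes and in at least 1 input library for 43, and 29 genes had a count in every library. At a minimum of 5 counts the numbers were 32 and 27. Obp47b and Obp57e were at 0 in all 6 libraries. A count of 0 allows up to 3 counts, which is 0.0395 to 0.0631 CPM in the RIP libraries and 0.138 to 0.182 CPM in the input libraries, for counting error only. Another 7 genes had a count in RIP and none in input, with the deeper mRNA coverage of RIP beside it. In the other direction, 2 genes, Obp56b and Obp73a, had a count in input and none in RIP. The same counts over all genes were not made, so these numbers are not read as a trait of OBP genes.

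Most of the OBP genes known from the antenna had few counts, while Obp19d and Obp56d were among the most abundant. The labels give the tissue as head and do not say whether the antennae were kept on it. The antennal list held 10 genes, and 8 of them did not pass the filter on low counts. All 10 together summed to 14.7 to 16.7 CPM in RIP and 69.3 to 78.6 in input. The 8 are grouped here by that filter, so a low sum follows from the choice. Those 8 genes together had 38, 34 and 28 counts in the RIP libraries and 15, 20 and 29 counts in the input libraries. This was 0.783% to 0.891% of all OBP counts in RIP and 0.377% to 0.433% in input. lush, which is needed for the response to the male pheromone cis-vaccenyl acetate, had 7, 6 and 11 counts in RIP and 1, 4 and 3 in input.

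Obp28a, an abundant protein of the antennal sensory hairs, had 5, 4 and 5 counts in RIP and 6, 10 and 14 in input. The neighbouring genes Obp83a and Obp83b, also known as OS-F and OS-E from the antenna, had at most 4 counts in any library. Obp59a, which acts in the antenna in humidity sensing, had 1, 0 and 2 counts in RIP and 0 in each input. Obp69a had 17, 15 and 3 counts in RIP and 1, 0 and 2 in input, and Obp19a and Obp84a had at most 4 counts anywhere. In CPM the groups of Obp69a overlapped, and its difference was not tested.

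Of the genes of the olfactory neurons, Orco and Ir25a had low CPM and Ir8a was near 0. Orco, the coreceptor of the odorant receptors, had 0.656 ± 0.0386 CPM in RIP and 0.665 ± 0.239 in input (SD, n = 3 each). Ir25a, a coreceptor of ionotropic receptors, had 68, 75 and 36 counts in RIP and 11, 11 and 22 in input, or 0.883 ± 0.121 CPM in RIP and 0.769 ± 0.325 in input. The coreceptor gene Ir8a had 2, 3 and 0 counts in RIP and 0 in each input. The antennal protein gene a5 was at 0 in all 6 libraries. The sensory neuron membrane protein genes Snmp1 and Snmp2, of support cells and pheromone-sensing neurons, were counted more often, at 3.14 ± 0.124 and 3.65 ± 0.115 CPM in RIP and 3.64 ± 0.602 and 2.68 ± 0.229 in input. The other gene listed for support cells, nompA, was low, at 0.365 ± 0.118 CPM in RIP and 0.653 ± 0.281 in input. In bulk samples, fewer cells of a type and less RNA per cell cannot be told apart.

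The remaining 2 genes of the antennal list, Obp19d and Obp56d, were among the 4 most abundant OBP mRNAs. By coding TPM in input, Obp44a led at 1116 ± 182, ahead of Obp99c at 689 ± 121, Obp19d at 577 ± 55.8 and Obp56d at 423 ± 27.6 (SD, n = 3). Obp99c and Obp19d did not differ beyond their spread. The next genes, Obp57c at 176 ± 29.3 and Obp56e at 173 ± 75.7, also lay within their spread of each other. In RIP the order by coding TPM was Obp99c at 207 ± 25.8, Obp44a at 181 ± 23.2, Obp19d at 147 ± 13.5, Obp57b at 118 ± 38.5 and Obp56d at 94.8 ± 3.56.

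All OBP genes together had 4265, 4201 and 3576 counts in RIP and 3981, 5092 and 6690 in input. As a share of counts outside rRNA this was 0.0117%, 0.0119% and 0.0141% in RIP against 0.0679%, 0.0648% and 0.0818% in input. Summed over the family, the CPM was 62.4 ± 11.1 in RIP and 274 ± 61.5 in input (SD, n = 3 each), and the groups did not overlap. The 4 leading genes Obp44a, Obp99c, Obp19d and Obp56d made up 62.6% ± 3.95 of OBP counts in RIP and 74.9% ± 1.86 in input.

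Of the 23 tested genes, 5 took a smaller share of the OBP counts in every RIP library than in any input, 9 took a larger share in every RIP library, and the shares of 9 overlapped. Among the abundant genes, Obp44a took 19.3% ± 1.23 of them in RIP and 31.5% ± 1.35 in input (SD, n = 3 each). Obp57b took 10.7% ± 3.35 in RIP and 1.54% ± 0.310 in input. Obp99c took 18.5% ± 0.516 and 16.6% ± 1.22, and Obp19d took 15.9% ± 2.75 and 16.2% ± 3.31, in RIP and input. These shares do not depend on how libraries are scaled against each other. They add up to a fixed total in each library, so a smaller share of Obp44a leaves larger shares to other genes. A larger share is thus not a higher level: Obp99c had the larger share in RIP and the lower CPM there. No background over all genes stands beside the numbers of genes with separate or overlapping shares.

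**Figure D1:**
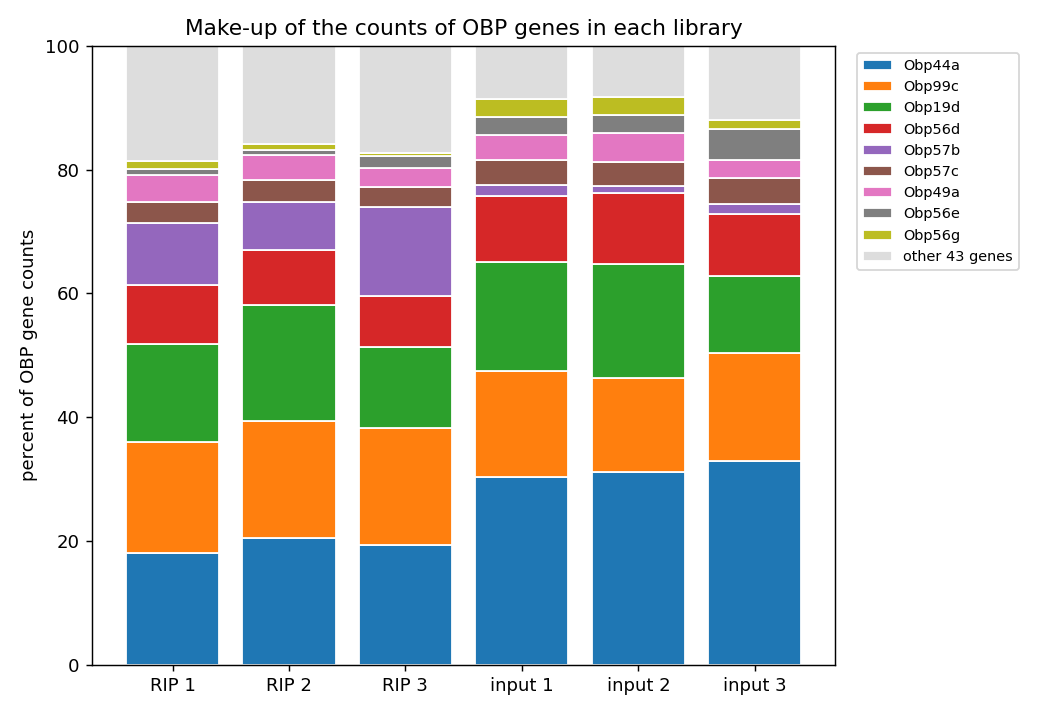
Each bar is 1 library and each segment the percent of its OBP gene counts that 1 gene took, with RIP libraries 1 to 3 on the left and input libraries 1 to 3 on the right. Obp57b holds 7.76% to 14.4% of OBP counts in the RIP bars and 1.2% to 1.81% in the input bars, and Obp44a holds less of the RIP bars than of the input bars.

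RIP and input were compared gene by gene to see which OBP mRNAs were recovered with Zn72D. Of the 52 genes, 23 passed the filter on low counts and were tested. None was called higher in RIP and 13 were called lower, while 10 did not pass (edgeR quasi-likelihood test, Benjamini-Hochberg adjusted p under 0.05 over all tested genes). Across all tested genes 20.2% were called higher and 17% lower, or 37.3% in either direction, so the share of OBP genes called lower, 56.5%, lay above the background. With the replicate number as a block, 2 were called higher, Obp57b and Obp56f, and 17 lower, where 32.7% and 27.7% of all genes were. The filter admitted Obp56f through the RIP libraries alone, so its call is no support for a difference. The median log2 fold change of the 23 was -1.98 under TMM scaling. In log2(TPM + 1) it was 1.26, against 2.54 for all tested genes. There 18 OBP genes were called higher and none lower, where limma called 96.8% of all genes higher and 0.214% lower. As for the filter, 16 of the 23 exceeded its minimum of 0.273 CPM (here of the plain library size) in all 6 libraries. Obp83g and Obp56f exceeded it in all 3 RIP libraries but not in every input, Obp56h and Obp19b in all 3 inputs but not in every RIP library, and Obp50b, Obp50c and Obp56a in a mix.

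Obp44a, made by glia of the nervous system, had 10.1, 11.4 and 14.6 CPM in RIP and 73.5, 72.8 and 114 CPM in input. All 3 RIP values lay below all 3 input values. This put RIP 7.20-fold below input, at log2 -2.85 ± 0.24 (SE, edgeR adjusted p = 0.000555). Obp44a lies at dm6 chr2R:8134170-8135315, and 19.1% of its exon bases lie opposite Pabp2. The sources used here do not say whether counting used strand.

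Obp19d, found in both smell and taste organs, had 8.92, 10.5 and 9.95 CPM in RIP and 42.6, 43.3 and 42.6 in input. Its libraries were the most alike within each group of the abundant genes, and the difference of log2 -2.13 ± 0.09 had the smallest p-value of the family (4.38-fold lower, edgeR adjusted p = 0.000135). Obp56d, of antenna and mouthparts, had 5.29, 5.02 and 6.12 CPM in RIP and 25.8, 26.8 and 34.5 in input. It fell 5.30-fold (log2 -2.41 ± 0.16, edgeR adjusted p = 0.000337).

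Obp99c had 10.1, 10.6 and 14.1 CPM in RIP and 41.5, 35.6 and 60.0 in input, without overlap. It fell 3.95-fold, by log2 -1.98 ± 0.24 (edgeR adjusted p = 0.00154). The gene lies at chr3R:29685736-29689311, with 3.44% of its exon bases opposite Gycalpha99B.

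Of the 6 genes known from taste organs 4 were tested, of which Obp49a and Obp57c were called lower in RIP and Obp57a and Obp57b were not called. Obp49a, made by accessory cells of taste hairs and needed for the suppression of sweet taste by bitter compounds, had 2.49, 2.26 and 2.38 CPM in RIP and 9.66, 11.0 and 10.5 in input. It fell 4.36-fold (log2 -2.13 ± 0.13, edgeR adjusted p = 0.000279). Obp57c had 1.84, 1.92 and 2.44 CPM in RIP and 9.78, 8.83 and 14.5 in input, a 5.34-fold lower level (log2 -2.42 ± 0.24, edgeR adjusted p = 0.000923). Obp57a had 1.04, 0.745 and 1.2 CPM in RIP and 2.25, 1.06 and 2.11 in input. The groups overlap, and a log2 difference of -0.86 ± 0.36 was not called (edgeR adjusted p = 0.117).

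Obp57b was the gene of these 4 with the higher mean in RIP under TMM scaling, as the plot of CPM by library shows. It had 5.68, 4.34 and 10.8 CPM in RIP and 4.37, 2.81 and 5.51 in input. RIP was the higher library in each of the 3 numbered pairs, but the groups overlapped and the difference of log2 0.71 ± 0.41 was not called (edgeR adjusted p = 0.234). With the replicate number as a block it was called higher (log2 0.68, edgeR adjusted p = 0.000511). Without both libraries numbered 3 the difference was 0.34 (edgeR adjusted p = 0.203), and without RIP replicate 3 alone it was 0.14 (edgeR adjusted p = 0.74), neither of them called.

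Obp57c, Obp57b and Obp57a follow one another on chromosome arm 2R, at 20503584 to 20504202, 20504251 to 20505136 and 20505150 to 20505758, and their transcripts have mean lengths of 557, 592 and 558 bases. Within a library, Obp57b had 3.09, 2.26 and 4.43 times the counts of Obp57c in RIP and 0.447, 0.318 and 0.381 times in input. The log2 ratio averaged 1.65 ± 0.485 in RIP and -1.40 ± 0.247 in input (SD, n = 3 each). The difference of 3.05 had an exact permutation p = 0.1 (two-sided), which is the smallest that 3 against 3 libraries allow. Obp57b over Obp57a gave 5.47, 5.82 and 9.02 in RIP and 1.95, 2.65 and 2.61 in input, with the same exact permutation p = 0.1 (adjusted p = 0.15 over 9 ratios tested, by Benjamini-Hochberg, for both). These ratios do not change with the scaling of libraries, and the pairs were chosen after their values were seen.

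**Figure D2:**
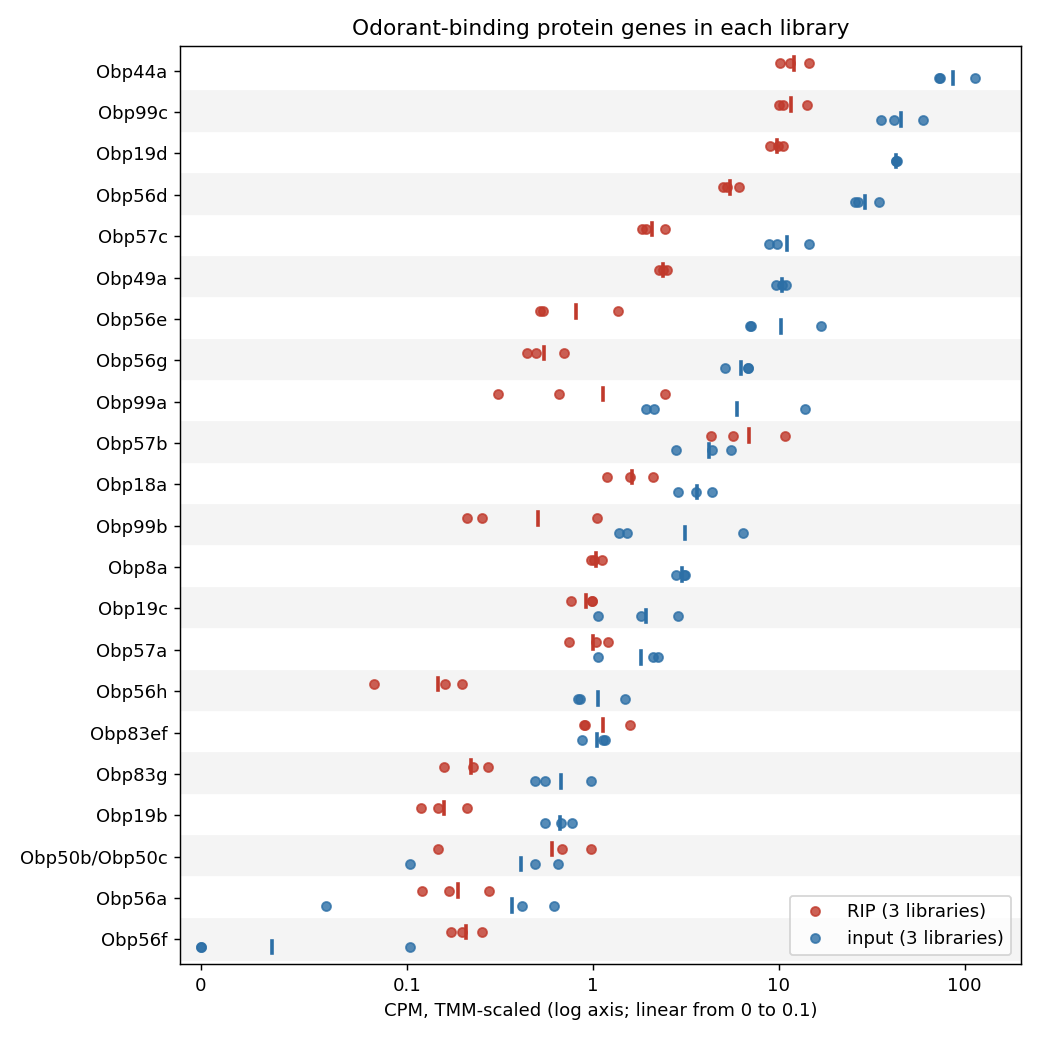
Points give the CPM (TMM-scaled; log axis, linear from 0 to 0.1) of each tested OBP gene in each RIP library (red, upper row of a gene) and input library (blue, lower row), with a tick at the mean of 3. The RIP points of Obp44a, at 10.1 to 14.6, lie left of its input points at 72.8 to 114, while those of Obp57b, at 4.34 to 10.8, overlap its input points at 2.81 to 5.51; without TMM the RIP values are shifted upwards relative to input.

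All 7 genes known also outside the sense organs were tested, and 4 were called lower: Obp44a and Obp99c, given above, Obp56g and Obp8a. Obp56g, a seminal fluid protein that is also made in the mouthparts, had 0.697, 0.492 and 0.442 CPM in RIP and 6.87, 6.81 and 5.15 in input. It fell 11.4-fold (log2 -3.51 ± 0.26, edgeR adjusted p = 0.0004). Of the 5 genes listed for the male reproductive tract 2 were tested, and Obp56e was called lower. It had 0.539, 0.519 and 1.37 CPM in RIP and 6.99, 7.09 and 16.9 in input, or 12.9-fold less in RIP (edgeR adjusted p = 0.00374). An antisense RNA, asRNA:CR44509, covers 84.4% of the exon bases of Obp56e on the other strand, so reads of the pair are uncertain.

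Obp56h, whose knockdown shortens the time to mating, had 0.197, 0.160 and 0.0841 CPM in RIP and 0.851, 0.828 and 1.49 in input, and was called lower (log2 -2.80, edgeR adjusted p = 0.00484). Obp56a had 21, 9 and 8 counts in RIP and 1, 9 and 12 in input, which overlap in CPM, and was not called (edgeR adjusted p = 0.381). Obp8a, on X, had 0.974, 1.01 and 1.11 CPM in RIP and 3.10, 2.81 and 3.14 in input, a fall of 2.91-fold (log2 -1.54 ± 0.18, edgeR adjusted p = 0.00142).

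Obp56f was the member with the highest fold change. This gene of the male reproductive tract had 15, 13 and 12 counts in RIP and 0, 0 and 2 in input. Over the group this is 40 counts against 2, a CPM ratio of 5.80 with a 95% exact (Clopper-Pearson) interval of 1.5 to 49.5 for counting error only. The fitted change did not pass (edgeR adjusted p = 0.107). It did with the replicate block (edgeR adjusted p = 0.0258) and without input replicate 3 (edgeR adjusted p = 0.0344). However, the gene exceeded the minimum of the filter in the RIP libraries alone. Neither the interval nor these calls are therefore support for a difference. Its neighbour Obp56e, in the same list, had the lowest fold change of the family.

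Other genes of that list were too rare to test. Obp56i had 24, 26 and 6 counts in RIP and 8, 9 and 4 in input. Obp51a had 6, 6 and 0 counts in RIP and 13, 10 and 3 in input. Obp22a had 5, 0 and 0 counts in RIP and 1, 8 and 2 in input. Outside the lists by role, Obp83cd had 10, 15 and 14 counts in RIP and 4, 7 and 10 in input, and Obp85a had at most 9 in any library. The other 13 genes that were not tested, among them Obp56b, Obp56c, Obp50a and Obp58b, had at most 3 counts in any library.

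Of the remaining members, 3 were called lower. Obp18a had 1.58, 1.18 and 2.10 CPM in RIP and 2.86, 3.59 and 4.38 in input (log2 -1.16, edgeR adjusted p = 0.0205). Obp19b had 0.118, 0.146 and 0.210 CPM in RIP and 0.668, 0.552 and 0.772 in input (log2 -2.07, edgeR adjusted p = 0.00856). Obp83g had 0.158, 0.226 and 0.273 CPM in RIP and 0.486, 0.552 and 0.978 in input (log2 -1.62, edgeR adjusted p = 0.03). The call for Obp18a ended without RIP replicate 1 (edgeR adjusted p = 0.0756), RIP replicate 2 (0.0609), input replicate 2 (0.0687) or input replicate 3 (0.0608). The call for Obp83g ended without RIP replicate 1 (edgeR adjusted p = 0.0973), RIP replicate 2 (0.099), input replicate 1 (0.0544), input replicate 2 (0.0684) or input replicate 3 (0.0928), and on the unfiltered table.

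Obp83ef, which encodes a protein with a pair of OBP domains, lay at the level of input. It had 0.895, 0.905 and 1.58 CPM in RIP and 1.15, 0.874 and 1.13 in input (log2 0.09 ± 0.32, edgeR adjusted p = 0.861). Next to it on 3R, Obp83g was called lower. Obp83ef over Obp83g in counts was 5.67, 4.00 and 5.77 in RIP and 2.38, 1.58 and 1.16 in input, without overlap (exact permutation p = 0.1, two-sided, the smallest possible). Its permutation p adjusted over 9 ratios was 0.15, and this pair too was chosen after its values were seen. The transcripts have mean lengths of 901 and 569 bases. With the trend with transcript length removed, neither gene was called (edgeR adjusted p = 0.179 for Obp83ef and 0.744 for Obp83g). Exons of Obp83ef and Obp83cd overlap on opposite strands over 10.2% of their bases.

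Obp19c, next to Obp19d on X, had 0.763, 0.985 and 0.988 CPM in RIP and 1.82, 1.06 and 2.88 in input. All 3 RIP values lay below all 3 input values, but the difference of log2 -1.07 ± 0.39 was not called (edgeR adjusted p = 0.0768). It was called lower with the replicate block (log2 -0.997, edgeR adjusted p = 0.0026) and without input replicate 2 (log2 -1.36, edgeR adjusted p = 0.0342). Obp57a was called lower in the same fits, at edgeR adjusted p = 0.00401 with the block and 0.0492 without input replicate 2.

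Obp50b and Obp50c are listed with 1 transcript span of 1648 bases, chr2R:14371186-14373006, and with equal counts in every library, so their reads cannot be told apart. Each had 74, 51 and 7 counts in RIP and 8, 14 and 2 in input (log2 0.55 ± 0.84, edgeR adjusted p = 0.662). Obp57d shares all of its exon bases with Cpr57A, and its 1 to 5 counts per library are likewise uncertain.

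OBP transcripts are short, and over the transcriptome shorter mRNAs had lower values in RIP. Across all tested genes, the median log2 fold change was -0.77 for the 2920 genes of 1118 bases or less, which held 21 of the 23 tested OBP genes, and 0.59 for the 2918 genes of 2998 bases or more (TMM scaling). The tested OBP genes had a median mean length of 592 bases, against 1822 over all tested genes. Over all tested genes Spearman's rho between length and log2 fold change was 0.64. Among the 23 it was 0.36, as a description across genes that share libraries. Obp50b and Obp50c, with equal counts and the largest length of 1648 bases, both entered it. When the trend of each library with transcript length was removed, 6 OBP genes were called lower and 2 higher, where 10.5% of all genes were called lower and 10.3% higher. The median log2 fold change of the tested OBP genes was then -0.63, and that of all tested genes 0.06.

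The 6 genes still called lower without the length trend were Obp44a (log2 -1.64, edgeR adjusted p = 0.0178), Obp56g (-2.04, 0.00428), Obp49a (-1.18, 0.00801), Obp19d (-0.94, 0.0131), Obp56d (-1.10, 0.0228) and Obp56h (-1.50, 0.0438). The genes called higher were Obp57b (log2 2.09, edgeR adjusted p = 0.0392) and Obp56f (3.81, 0.0401), which the filter admitted through the RIP libraries alone. The calls ended for Obp99c (log2 -0.63, edgeR adjusted p = 0.219), Obp57c (-1.02, 0.0648), Obp56e (-2.19, 0.062), Obp8a (-0.25, 0.51), Obp18a (-0.10, 0.874), Obp19b (-0.88, 0.224) and Obp83g (-0.27, 0.744). With the block as well, 3 were called higher, Obp57b, Obp56f and Obp83ef, and 11 lower, where 27.2% of all genes were called higher and 23.1% lower.

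**Figure D3:**
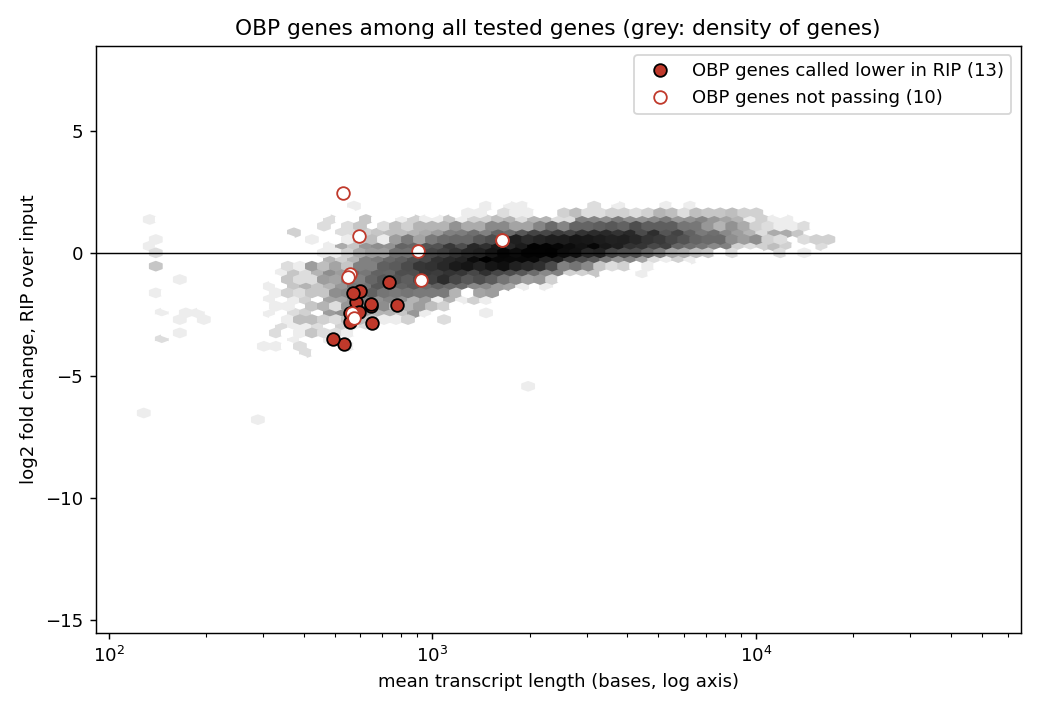
Grey cells show the density of all 11670 tested genes by mean transcript length (bases, log axis) and log2 fold change of RIP over input under TMM scaling, and circles are the 23 tested OBP genes, filled where called lower. Most OBP genes lie near 600 bases at the low end of the grey band, and Obp57b and Obp56f lie above 0 there.

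**Figure D4:**
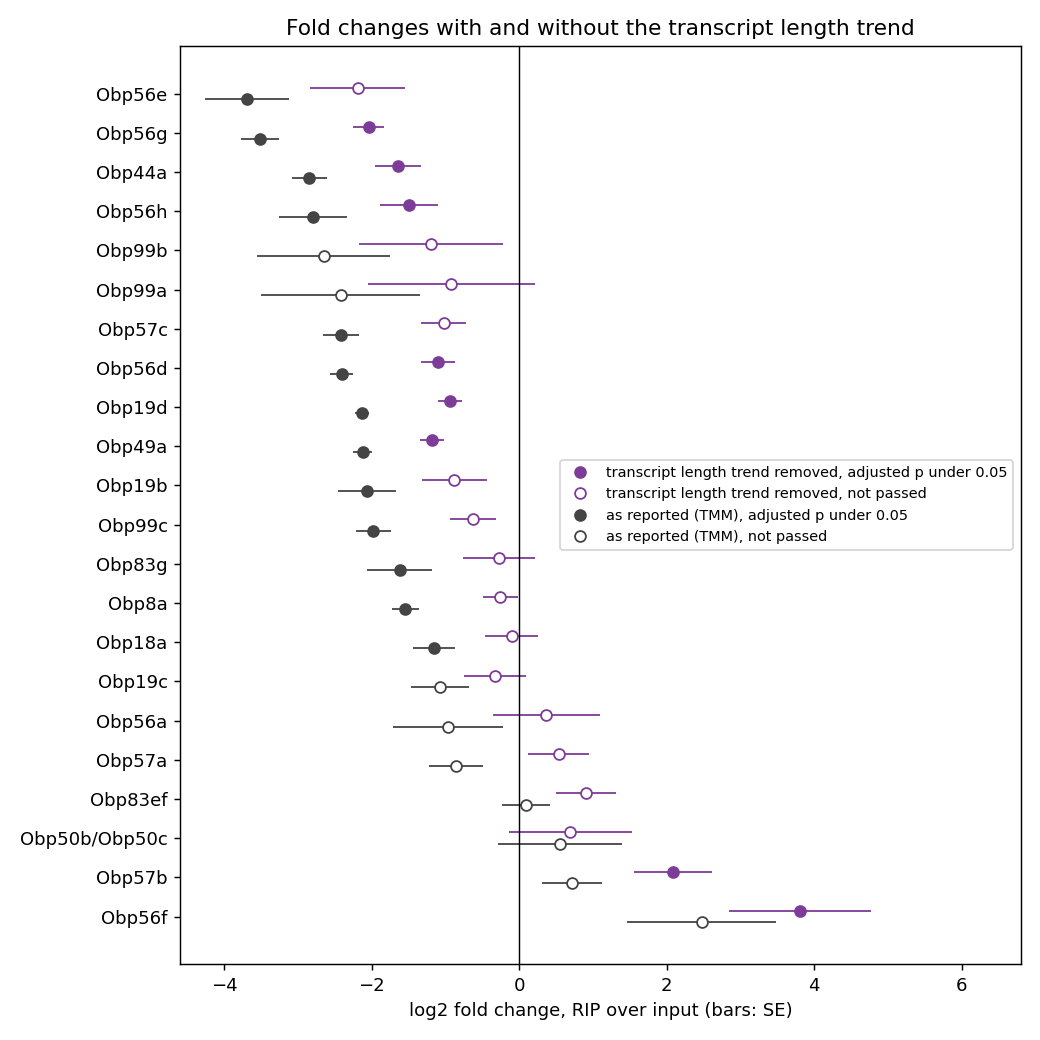
The log2 fold change of RIP over input with its SE for each tested OBP gene, in the reported fit (grey) and with the transcript length trend removed (purple), filled where the edgeR adjusted p was under 0.05. Without the trend the values move to the right, 6 of the 13 calls lower in RIP are kept, and Obp57b and Obp56f are called higher. The filter admitted Obp56f through the RIP libraries alone. With no TMM scaling or in TPM more genes lie above 0.

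The direction of the OBP changes is relative to the other genes in a library. With library size alone the median of the tested OBP genes was -0.14 on the log2 scale and that of all tested genes 1.90, and 6 OBP genes were called higher and 5 lower, where 80.4% of all genes were called higher and 1.48% lower. In log2(TPM + 1) the median was 1.26 for the OBP genes and 2.54 for all tested genes, and 18 OBP genes were called higher and none lower, where limma called 96.8% of all genes higher and 0.214% lower. Set against the median of all tested genes, 18 of the 23 lay below it under TMM, 18 with library size alone and 22 in log2(TPM + 1). The 22 depends on the number added to TPM. Relative to that median Obp56f stood at -0.623 in log2(TPM + 1) and 1.275 in log2(TPM + 0.1), and Obp83ef at -0.2125 and 0.0491.

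Obp99a and Obp99b spread widely among the libraries of 1 group. Obp99a, known from the fat body, had 0.658, 0.306 and 2.44 CPM in RIP and 2.13, 1.93 and 13.9 in input. The libraries numbered 3 were the high ones in both groups, and the difference of log2 -2.42 ± 1.08 was not called (edgeR adjusted p = 0.135). Obp99b, also called tsx and first described in the fat body of the head, had 0.210, 0.253 and 1.05 CPM in RIP and 1.52, 1.38 and 6.44 in input (log2 -2.65 ± 0.90, edgeR adjusted p = 0.0623).

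With the replicate number as a block both passed as lower in RIP, Obp99a at log2 -2.31 (edgeR adjusted p = 2.34e-09) and Obp99b at -2.62 (4.78e-09). Without both libraries numbered 3 they were called lower too (log2 -2.23 and -2.79, edgeR adjusted p = 0.000207 and 4.31e-05), as they were without RIP replicate 3 alone (log2 -3.69 and -3.80, edgeR adjusted p = 0.0468 and 0.0186). Without input replicate 3 alone neither was called, at log2 -0.83 for Obp99a (edgeR adjusted p = 0.535) and -1.53 for Obp99b (edgeR adjusted p = 0.202). Of the 23 tested members, 17 had a higher level in the library numbered 3 than the mean of the other two, in RIP and in input alike, and 3 had a lower one. Obp50b and Obp50c, whose counts are equal, are both among the 3. The same count over all tested genes was not made, so 17 of 23 is not read as a trait of OBP genes. The libraries numbered 3 deviated together across all tested genes as well (r = 0.848).

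Some markers of other tissues moved with the libraries numbered 3. The fat body list (Yp1, Yp2, Yp3, Lsp2, to and fit) summed to 1196 to 3486 CPM in RIP and 1591 to 4580 in input. In both groups 5 of its 6 genes were higher in replicate 3, while to was slightly lower. The larval serum protein gene Lsp2 had 6.85, 6.76 and 26.2 CPM in RIP and 6.99, 9.62 and 36.5 in input. Of the gut list, alphaTry and betaTry were lower in replicate 3 in both groups, and Try29F was higher. Of the 9 genes of the male reproductive tract list, 8 were lower in replicate 3 in both groups and none was at 0 in a whole group, while 3 of the 7 tested were called lower in RIP. The whole list summed to 48.3, 43.8 and 38.5 CPM in RIP and 171, 166 and 169 in input, without a fall in input replicate 3. EbpIII, the exception, had 27.4, 25.5 and 34.8 CPM in RIP and 119, 119 and 159 in input. Without EbpIII the list summed to 20.9, 18.3 and 3.74 CPM in RIP and 52.0, 47.2 and 10.3 in input.

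Beside these, Obp50b, Obp50c and Obp56g were the tested members lower in replicate 3 in both groups. Obp56e, of the male tract list, was higher there by 0.86 in RIP and 1.21 in input on the log2(CPM + 0.5) scale. The part of these tissues, or of the mix of males and females in the pools, in the OBP values was not tested. Without both libraries numbered 3, all 13 calls lower in RIP remained, and 1 OBP gene was called higher and 18 lower, where 24.7% of all genes were called higher and 28.6% lower. The gene called higher was Obp56f, which had 0 counts in the inputs left and is no support for a difference.

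**Figure D5:**
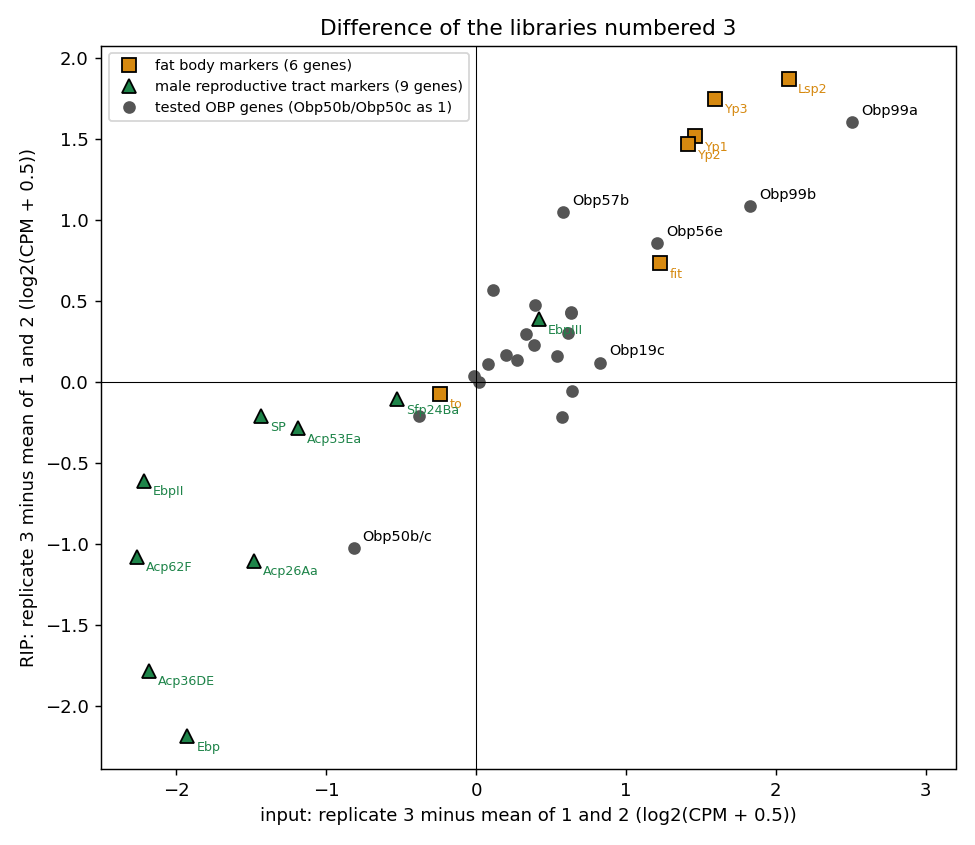
For each tested OBP gene (grey circles), fat body marker (orange squares) and male reproductive tract marker (green triangles), the difference of the library numbered 3 from the mean of 1 and 2 in log2(CPM + 0.5), in RIP on the vertical and in input on the horizontal axis. Obp99a (1.61 in RIP and 2.51 in input) and Obp99b (1.08 and 1.83) lie near the yolk protein genes Yp1 to Yp3 and Lsp2, and 8 of the 9 male tract markers lie below 0 on both axes.

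Other genes around odour and pheromone receptors were taken from the same fit. Of 40 such genes, 39 were matched in the tables and 13 were tested. None was called higher, 2 were called lower and 11 did not pass, with a median log2 fold change of 0.20. Over all genes 20.2% were called higher and 17% lower, so the 2 of 13 called lower lie near the background. The genes called lower were both short, Phk-3, a pherokine (0.862 ± 0.149 CPM in RIP and 1.67 ± 0.344 in input; log2 -0.96 ± 0.27, edgeR adjusted p = 0.032), and Pebp1 (log2 -2.57 ± 0.77, edgeR adjusted p = 0.041). Est-6, an esterase that degrades pheromone and food odours, had 20.4 ± 3.22 CPM in RIP and 18.9 ± 1.87 in input (log2 0.11 ± 0.15, edgeR adjusted p = 0.607). The difference between these genes and the OBPs was not tested.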

How the data were processed

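The authors' deposited tables hold RSEM expected counts, TPM, transcript lengths (given as bases) and the posterior SD of each count per gene and library, per the file headers. The submitters' processing notes name RSEM 1.2.30, STAR 2.5.4b, DESeq2 1.20.0, Trim Galore 0.4.5 and the dm6 build. Neither the annotation release nor the strand setting is given in the sources used here. RSEM splits a read that fits more than 1 gene between them, and the deposited TPM counts rRNA in its total.

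Symbols and dm6 coordinates came from the Ensembl BDGP6 annotation, and all 52 OBP IDs matched directly. After rounding, expected counts were filtered with filterByExpr and TMM-scaled, and RIP was set against input with edgeR's quasi-likelihood test, without covariates (R 4.3.3, edgeR 4.0.16, limma 3.58.1, DESeq2 1.42.0). Each SE is the fold change over the square root of F. Tested on simulated data for RIP against input (11670 genes), the fit recovered 83.6% of 67 genes with a 2-fold change, and of 141 calls 6 were false. At a 1.5-fold change it recovered 19.4% of 67 genes. The simulation gave all genes 1 spread (dispersion 0.03) and no difference between replicate numbers, and changed only genes with a mean above 2 CPM. It therefore does not give the power or error for rarer OBP genes or for the replicates seen here. Replicates differed by more than sampling noise (chi-square per degree of freedom 14.8 to 138). Same-numbered libraries deviated together from their group means (r = 0.665, 0.604 and 0.848 across genes), so the numbers were taken to pair the libraries and a blocked fit was run. Numbers 1 and 2 were not told apart this way, since RIP 2 correlated with input 1 at 0.626 and RIP 1 with input 2 at 0.604. The OBP genes, the lists of other genes and the alternatives were chosen with earlier results of these data known. All tested members could be named, with full statistics for the 8 smallest p-values in each direction and the 5 highest in input; the gene antdh of the list of other genes was not matched.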

Additional observations from a re-analysis of the deposited data

How the results depend on the processing

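Of 432 values of single genes under 19 alternatives, 312 kept direction and side of the threshold, 30 kept direction and were no longer called, 41 kept direction and became called, and 49 changed sign. Of these sign changes, 16 each came in log2(TPM + 1) and log2(TPM + 0.1) and 6 with library size alone. With library size alone Obp8a stood at 0.29, Obp18a at 0.65, Obp19c at 0.79, Obp56a at 0.84, Obp57a at 1.00 and Obp83g at 0.20. In log2(TPM + 1) and log2(TPM + 0.1) the values were 1.26 and 1.28 for Obp19d, 1.65 and 1.90 for Obp8a, 1.94 and 2.24 for Obp18a, 0.69 and 1.25 for Obp19b, 1.61 and 2.21 for Obp19c, 0.63 and 0.64 for Obp44a, 1.28 and 2.49 for Obp56a, 1.07 and 1.10 for Obp56d, 0.39 and 0.58 for Obp56h, 1.04 and 1.09 for Obp57c, 1.51 and 1.52 for Obp99c, 2.19 and 2.62 for Obp57a, 1.09 and 1.77 for Obp83g, 1.22 and 1.31 for Obp49a, 0.99 and 1.16 for Obp99a, and 0.63 and 0.82 for Obp99b. Without the length trend Obp56a stood at 0.37 and Obp57a at 0.53 (0.43 and 0.53 with the replicate block). Obp83ef, at 0.09 as reported, was -0.054 without rRNA genes, -0.037 with limma-voom and -0.32 without both libraries numbered 3, and -0.33 to 0.24 with 1 library left out. Obp50b and Obp50c were -0.052 to 1.08 with 1 library left out. The numbers of OBP genes called higher and lower, 0 and 13 as reported, were 6 and 5 with library size alone, 18 and 0 under both pseudocounts in TPM, 2 and 17 with the replicate block, 2 and 6 without the length trend, 3 and 11 without it and with the replicate block, and 1 and 18 without both libraries numbered 3. Their median log2 fold change, -1.98 as reported, was -0.14 with library size alone, 1.26 and 1.52 in TPM, -1.03 without a filter on low counts (50 genes, most with few counts), and -0.63 without the length trend (-0.65 with the block). Leaving out 1 library gave 0 to 1 genes called higher, 12 to 16 lower and medians of -2.24 to -1.23. In these fits 12.9% to 21.2% of all genes were called higher and 12.0% to 19.2% lower. The gene called higher was Obp56f without input replicate 3, and without that library the median was -1.23. All 13 genes were also called lower with RLE factors, without rRNA genes, with a minimum of 10 counts in 3 libraries, with DESeq2 and with limma-voom. At 5 counts in place of 1, 32 in place of 50 genes were detected. Depth limits the 29 untested genes, whose highest count in any library was 26. With 3 libraries a group, ratios could not reach an exact p below 0.1.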
